A study of Bos taurus with 12 samples.

Results

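The cows of this study carried 1 of 2 codes, B1 or B2, in their library names, and the overall level of milk fat RNA was compared between the codes. All 12 libraries of the series were used, 6 from the 3 cows coded B1 (cows 4319, 4383 and 4394) and 6 from the 3 cows coded B2 (cows 4345, 4381 and 4408). The animals were Holstein cows in early lactation. Each gave 1 control library and 1 library labelled for 63 days of lysine supplied beyond the rumen, so both codes held treated and untreated milk in equal number. The labels do not say what B stands for, and nothing in them sets the B1 cows apart in breed, stage of lactation or treatment. A second code, P, was matched across the codes. Cows 4319 and 4345 had P code 3 in the control and 2 in the lysine library, cows 4383 and 4381 had 4 and 3, and cows 4394 and 4408 had 1 and 4. A B code was fixed within a cow, so the cow was the unit, with 3 on each side, and the raw counts of its libraries were summed. A sum weights each library by its depth, so control and lysine libraries did not weigh equally in it.

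Milk fat globules leave the mammary secretory cell wrapped in its apical membrane and enclose crescents of cytoplasm. Their RNA is therefore rich in the messages of lactation, above all those of the caseins, the whey proteins and the enzymes of milk fat synthesis. Leukocytes and shed epithelial cells can also be held in the fat layer. In such bulk RNA, fewer cells of a type and less RNA per cell cannot be told apart. The genes are identified by Ensembl cattle gene ID, and no ID was paired with a symbol in the tables used here. They are therefore referred to by abundance rank or by ID, and neither the mammary identity of the RNA nor its share of leukocyte RNA was checked against markers.

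Sequencing depth differed between the codes. The summed counts were 36.6, 36.1 and 31.2 M (M for mega) in the B1 cows 4319, 4383 and 4394, and 63.0, 69.2 and 40.0 M in the B2 cows 4345, 4381 and 4408. Every B2 cow was deeper than every B1 cow. The mean library of a cow held 17.3 ± 1.49 M counts in B1 and 28.7 ± 7.69 M in B2 (mean ± SD, n = 3 cows each), with an exact two-sided permutation p of 0.1, the smallest that 3 against 3 can give, and 0.333 after adjustment over 5 measures. The difference lay mainly in the lysine libraries. It was 22.0 M among those alone and 0.746 M among the controls alone. Control and lysine libraries held 31.1 and 5.45 M in cow 4319, 7.40 and 28.7 M in cow 4383, and 13.3 and 17.9 M in cow 4394. In B2 they held 25.1 and 37.9 M in cow 4345, 12.6 and 56.6 M in cow 4381, and 16.4 and 23.6 M in cow 4408. The summed counts were therefore not balanced for the treatment, either within cows or between the codes.

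The number of genes detected was compared next, with and without the gap in depth. The mean library of a B1 cow showed 12443 ± 893 genes with at least 1 count, against 13585 ± 926 in B2 (n = 3 each, exact permutation p = 0.2, adjusted p = 0.333). With every library brought to 5.45 M counts, the depth of the shallowest, the values were 11897 ± 662 and 12683 ± 593 (exact permutation p = 0.2, adjusted p = 0.333), so the gap was 1141 genes as sequenced and 786 genes at equal depth. Neither separated the codes. As sequenced, the gap was 1799 genes among the controls and 483 among the lysine libraries (exact permutation p = 0.2 and 0.6, n = 3 each). At equal depth they were 1154 and 418 genes (exact permutation p = 0.3 for both, n = 3 each). How much of each gap came from depth was not tested. Without cow 4394 the gap was 641 genes as sequenced and 408 at equal depth, and without cow 4345 it was 648 and 455. At equal depth cow 4394 (B1) had the fewest genes, 11142, and cow 4345 (B2) the most, 13345, while the other 4 cows lay between 12175 and 12503. Cow 4394 also stood apart in genes that were missing: genes whose level elsewhere predicted at least 20 counts were at 0 in 5.70% of cases in its mean library, against 0.158 to 1.22% in the other 5 cows. Its control library had 8.69% and its lysine library 2.70%.

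The bulk of the RNA came from the same few genes under both codes. The 10 genes ranked highest by their mean share over the cows took 74.4%, 82.6% and 62.0% of the summed counts in the B1 cows 4319, 4383 and 4394, and 62.6%, 81.1% and 68.7% in the B2 cows 4345, 4381 and 4408. The ranges almost coincide. Taken within each library instead, the share of the 10 most abundant genes averaged 70.2 ± 7.15% in B1 and 70.2 ± 8.03% in B2 (n = 3 cows each, exact permutation p = 1).

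Of these 10 genes, the gene of highest mean share was the most uneven among the cows. It took 22.0%, 40.8% and 3.82% of the counts in cows 4319, 4383 and 4394, and 16.9%, 23.7% and 20.8% in cows 4345, 4381 and 4408. The B1 cows thus held both the highest and the lowest value, 10.7 times apart, and the 3 B2 cows sat between them. Its mean was 22.2 ± 18.5% in B1 and 20.5 ± 3.37% in B2 (n = 3 each, exact permutation p = 0.8, adjusted p = 0.889 over 10 genes). After normalisation the log2 fold change of B2 over B1 was -0.47 ± 1.01 (SE), with a 95% interval from -2.76 to 1.82.

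The genes of rank 2 to 7 had steadier shares of the cow sums. Each varied by at most 1.90 times in share between any 2 cows, and their mean shares under B1 and B2 were 19.8 and 20.1%, 9.21 and 9.20%, 7.79 and 6.71%, 5.48 and 5.81%, 4.06 and 3.09%, and 2.54 and 2.63%. For these differences the exact permutation p ran from 0.2 to 1 (n = 3 each), where 0.1 is the smallest possible. The log2 fold changes lay between -0.42 and 0.08 after normalisation, with standard errors of 0.53 to 0.66. In single treatments the gene of rank 4 went both ways. Among the controls it took 8.64%, 6.37% and 8.34% in cows 4319, 4383 and 4394, and 10.4%, 10.5% and 9.15% in cows 4345, 4381 and 4408. All B2 controls were above all B1 controls, by 2.26 percentage points on average (exact permutation p = 0.1, n = 3 each, the smallest possible). Among the lysine libraries B2 minus B1 was -2.88 points (exact permutation p = 0.3, n = 3 each), against -1.07 over the sums. For the gene of rank 3 the difference was 1.91 points among the controls and -0.02 over the sums (exact permutation p = 0.3 and 1, n = 3 each). The gene of rank 6 was lower in B2 each time, by -1.18 points among the lysine libraries, where the codes did not overlap (exact permutation p = 0.1). Its difference was -0.56 points among the controls and -0.96 over the sums (exact permutation p = 0.7 and 0.2). Whether these differences depend on the treatment was not tested. The TMM scaling factors of the cows ran from 0.634 to 1.54, so a normalised level can differ from a share by that much.

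Among the first 10, the genes of rank 8 and rank 10 had the largest ratios of B2 to B1. The gene of rank 8 took 0.313%, 1.12% and 0.454% in cows 4319, 4383 and 4394, and 0.763%, 1.99% and 1.29% in cows 4345, 4381 and 4408. The codes overlapped, since cow 4383 lay above cow 4345. The log2 fold change was 0.92 ± 0.88 (95% interval -1.09 to 2.93), and the share differed by 0.028 percentage points among the control libraries alone and by 0.716 over the summed counts (exact permutation p = 0.2, n = 3 each, adjusted p = 0.833). For the gene of rank 10 a single animal set the ratio. Cow 4345 stood at 1.15% and the other 5 cows between 0.189 and 0.344%, with cows 4381 and 4408 inside the range of B1 at 0.243 and 0.325%.

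**Figure D1:**
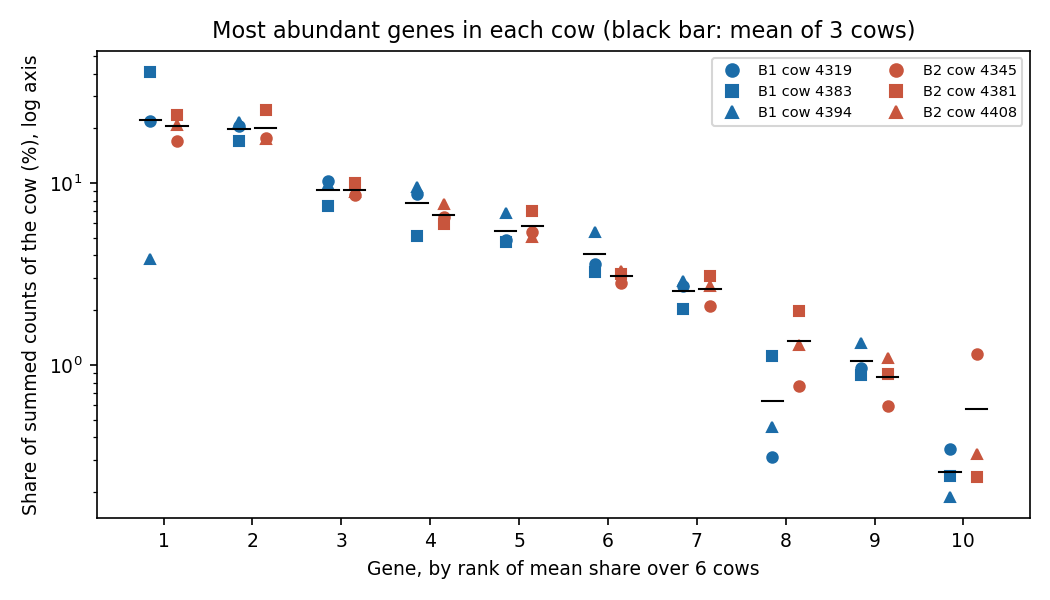
Share of the summed counts of each cow (percent, log axis) for the 10 genes of highest mean share, with B1 cows in blue, B2 cows in red and black bars for the mean of 3 cows. The first gene spans 3.82 to 40.8% within B1, and cow 4345 stands alone at 1.15% for the gene of rank 10.

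The main comparison asked whether any gene differed in overall level between B1 and B2 cows. No gene passed: of 12151 genes tested, 0 (0%) were higher or lower in B2 by edgeR (quasi-likelihood test on cow sums, threshold of 0.05 after Benjamini-Hochberg adjustment). The lowest adjusted value was 0.9999. Without adjustment 143 genes had p under 0.05, 1.18% of those tested, and 58 were higher and 85 lower in B2. If no gene differed and the p values were exact, a fraction of 0.05 would be expected, so 143 was not an excess. Why the share was lower was not tested. The median log2 fold change over all tested genes was 0.02. Cows 4394 and 4345 stood apart in gene detection, and with each left out in turn 150 and 182 genes were at an unadjusted p under 0.05, again with 0 called. The balance of directions was not stable. Without cow 4345 there were 43 higher and 139 lower in B2, and without cow 4394 there were 59 and 91. More were higher than lower without each of the others, with 119 and 96 without cow 4319, 119 and 91 without cow 4383, 140 and 114 without cow 4381, and 83 and 66 without cow 4408. It changed with the scaling too. With library totals as the scaling, which moved the median of all genes to 0.17, there were 423 higher and 58 lower.

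DESeq2 called 2 genes on the same cow sums, 1 in each direction, 0.0122% of the 16434 genes it tested. These were ENSBTAG00000002846 and ENSBTAG00000018347, which also had the smallest unadjusted p values in edgeR. Limma-voom on the 12 libraries with cow as a random block called neither. Adjusted p by DESeq2 was 0.0011 for both; over the other 18 alternatives, among them edgeR under other settings, it was 0.356 to 0.9999 for the first and 0.0738 to 0.9999 for the second.

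ENSBTAG00000002846 was lower in every B2 library than in every B1 library. In CPM (counts scaled to library size) after TMM, the trimmed mean normalisation, the control and lysine libraries measured 97.7 and 113 in cow 4319, 93.6 and 100.2 in cow 4383, and 112 and 69.6 in cow 4394. The B2 libraries measured 39.5 and 32.6 in cow 4345, 36.7 and 38.6 in cow 4381, and 54.7 and 24.8 in cow 4408. The lowest B1 library was thus above the highest B2 library, and the separation held in treated and in untreated milk. Cow sums were 90.3 ± 6.15 in B1 and 34.1 ± 2.70 in B2 (mean ± SD, n = 3 each). The log2 fold change was -1.41 ± 0.25 (SE, 95% interval -1.97 to -0.85), or 2.65-fold lower in B2, with an unadjusted p of 0.00034 and an adjusted p of 0.9999 by edgeR. It was -1.21 among the control libraries alone and -1.59 among the lysine libraries alone, and -1.34 to -1.46 with any 1 cow left out. The gene ranked 701st by mean level.

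ENSBTAG00000018347 showed the opposite pattern at a low level. Control and lysine libraries measured 0.92 and 0.158 normalised CPM in cow 4319, 0.218 and 0.393 in cow 4383, and 2.92 and 0.952 in cow 4394. In B2 they measured 10.5 and 14.1 in cow 4345, 9.08 and 6.69 in cow 4381, and 12.8 and 6.77 in cow 4408. All 6 B2 libraries were above all 6 B1 libraries, and the control library of cow 4394 was the nearest of the B1 libraries. The raw counts behind these values were 1 to 55 in B1 libraries and 102 to 754 in B2 libraries. The log2 fold change was 3.24 ± 0.62 (95% interval 1.83 to 4.65), or 9.46-fold higher in B2, with an unadjusted p of 0.00062 and an adjusted p of 0.9999 by edgeR. It was 2.96 among the controls, 4.005 among the lysine libraries and 4.08 without cow 4394. At a mean of 4.95 CPM the gene lay just under the 5 CPM of the rule for named genes, and it is named because DESeq2 called it, a choice made after its values were seen.

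**Figure D2:**
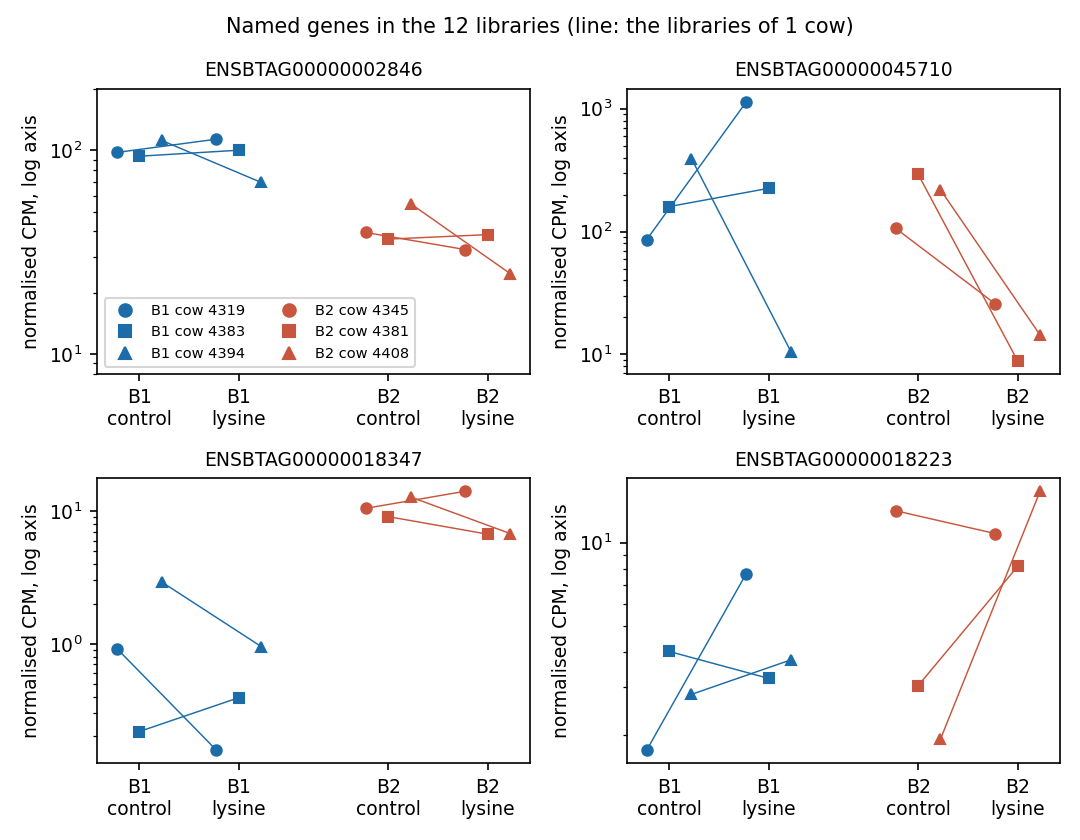
Normalised CPM (log axes, each with its own range) of 4 named genes in the control and lysine libraries of the B1 cows (blue) and B2 cows (red), with a line joining the libraries of a cow. The codes do not overlap for ENSBTAG00000002846 (69.6 to 113 against 24.8 to 54.7) or ENSBTAG00000018347 (0.158 to 2.92 against 6.69 to 14.1), and they do for the other 2 genes.

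Without any called gene, the rule for named genes took the 10 smallest p values in each direction at 5 CPM or more. The 10 lower in B2 had log2 fold changes from -8.55 to -0.81 and 4 of them kept the 12 libraries apart, against 0.74 to 1.67 and 0 of 10 for those higher in B2. Over all tested genes the share was 0.181%, and 10 of the 7129 genes at 5 CPM or more kept the libraries apart. The named genes were picked by small p, which favours separation, so this is a description. The next genes of each direction among those at 5 CPM or more had less even libraries. ENSBTAG00000045710 measured 85.9, 160 and 392 normalised CPM in the controls of cows 4319, 4383 and 4394, and 106, 293 and 219 in those of cows 4345, 4381 and 4408. Its lysine libraries measured 1134, 225 and 10.5 in the same B1 cows and 25.8, 8.85 and 14.4 in the B2 cows. The codes overlapped in the controls, and among the lysine libraries 2 B1 cows were far above the rest. The log2 fold change of the cow sums was -1.53 ± 0.35 (95% interval -2.32 to -0.74, unadjusted p = 0.0019 and adjusted p = 0.9999 by edgeR), but it was -0.05 among the controls and -4.83 among the lysine libraries. It was also -1.09 without the control library of cow 4394. Whether the difference between codes itself differed with the treatment was not tested.

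ENSBTAG00000018223 measured 1.77, 4.03 and 2.82 normalised CPM in the controls of cows 4319, 4383 and 4394 and 7.72, 3.22 and 3.76 in their lysine libraries. In cows 4345, 4381 and 4408 the controls measured 13.1, 3.03 and 1.94 and the lysine libraries 10.8, 8.21 and 15.4. The 3 B2 lysine libraries were the highest of that treatment, although 8.21 was close to the 7.72 of cow 4319, and the controls of cows 4381 and 4408 lay within B1. From the cow sums the log2 fold change came to 1.50 ± 0.34 (95% interval 0.73 to 2.28, unadjusted p = 0.0019 and adjusted p = 0.9999 by edgeR). With the libraries of a cow weighted equally, by limma-trend, the value was 0.95.

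The gene that followed it among those higher in B2 differed less and more evenly. Its cow sums were 22.4, 17.0 and 15.1 normalised CPM in B1 (cows 4319, 4383 and 4394) and 31.1, 34.0 and 34.0 in B2 (cows 4345, 4381 and 4408). The lysine library of cow 4319, at 37.4, lay among the B2 libraries, which ran from 26.2 to 40.7. The log2 fold change was 0.86 ± 0.25 (95% interval 0.29 to 1.44, unadjusted p = 0.0084 and adjusted p = 0.9999 by edgeR).

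Few genes kept the codes apart. The 3 B1 and the 3 B2 cow sums did not overlap for 636 genes, 5.23% of those tested, 319 higher and 317 lower in B2. Complete separation of 3 against 3 has an exact two-sided permutation p of 0.1, so these 636 genes are not called. The 12 single libraries did not overlap for 22 genes, 0.181% of those tested, 10 higher and 12 lower. Those lower in B2 were the better expressed, with a median of 12.2 CPM and 9 of 12 at 5 CPM or more, against 2.44 CPM and 1 of 10 for those higher in B2. Their log2 fold changes ran from -3.86 to -0.44 and from 0.37 to 3.82, and 13 of the 22 were at an unadjusted p under 0.05. These genes were picked for not overlapping, so their fold changes describe them and test nothing.

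Wide differences in well-expressed genes rested on single libraries in 6 of 10 cases. Of 7129 genes at 5 CPM or more, 10 had a log2 fold change beyond 2 in either direction, 9 of them lower in B2. A single library held over 50% of the gene's summed level in 6 of the 10, against 7 (0.0982%) of all genes at that level, these 6 included. The 10 were picked for a wide fold, which 1 high library can give, so the contrast is a description. That library was the control of cow 4394 in 3 genes, the lysine library of cow 4319 in 2 and the lysine library of cow 4383 in 1, all coded B1. The widest fold of all was such a case. This gene had 37774 counts in the lysine library of cow 4383 and 12 to 129 counts in the other 11 libraries. Its log2 fold change of -8.55 ± 2.48 (unadjusted p = 0.0084 by edgeR) rests on that library. None of the 10 genes kept the 12 libraries apart.

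**Figure D3:**
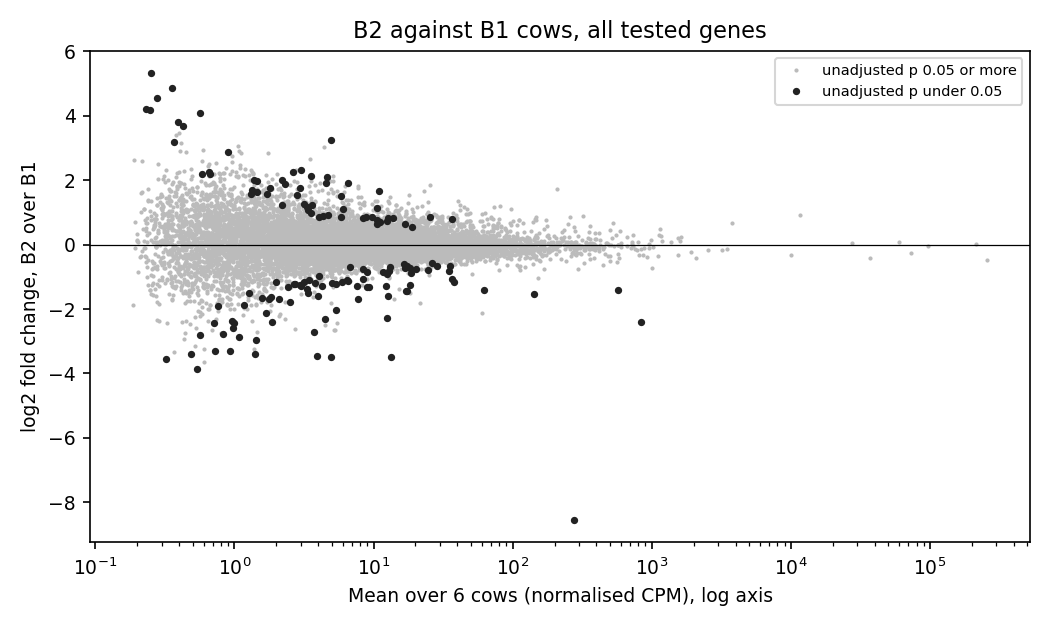
Log2 fold change of B2 over B1 against the mean level over the 6 cows (normalised CPM, log axis) for the 12151 tested genes, with the 143 at an unadjusted p under 0.05 in black. The median lies between -0.05 and 0.17 at every level, the points spread widest in scarce genes, and the point at -8.55 is the gene carried by 1 library.

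Scarce genes leaned towards B2, among those that passed the low-count filter. That filter used CPM from library totals, a scaling with a median log2 fold change of 0.17. A gene near its floor could pass through the 3 B2 cows alone. The part of the filter in this lean was not tested. The median log2 fold change was 0.17 for the 1469 tested genes under 1 CPM, 0.07 for the 3553 genes at 1 to 5 CPM, 0.01 at 5 to 50 CPM (6213 genes), -0.05 at 50 to 500 CPM (852 genes) and -0.04 at 500 CPM or more (64 genes). All 24616 gene IDs, tested or not, were then searched, of which 8083 had no count in any library. Of the 24616, 77 had at least 1 count in every B2 cow and none in any B1 cow, against 3 in the opposite direction. The B2 cows had 172 M counts in all and the B1 cows 104 M, and the 77 genes had a median of 19 counts over the 3 B2 cows. The part of depth in this imbalance was not tested. At 10 or more counts in every cow of the code the numbers were 1 and 0. The single gene had 122, 12 and 51 counts in cows 4345, 4381 and 4408.

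Cows of the same code did not correlate more highly than cows of different codes. Across the tested genes, log2 CPM correlated at 0.827 to 0.925 in the 6 pairs of cows with the same code (median 0.867) and at 0.775 to 0.937 in the 9 pairs with different codes (median 0.90). The closest pair of all was cow 4383 (B1) with cow 4408 (B2), at 0.937, and the most distant was cow 4394 (B1) with cow 4345 (B2), at 0.775. For 5 of the 6 cows the most similar animal carried the other code. The exception was cow 4319, which was closest to cow 4383. Pairs without cow 4394 and cow 4345 lay at 0.904 to 0.937, whatever their codes. These are correlations across genes that share libraries, and genes are not independent replicates.

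**Figure D4:**
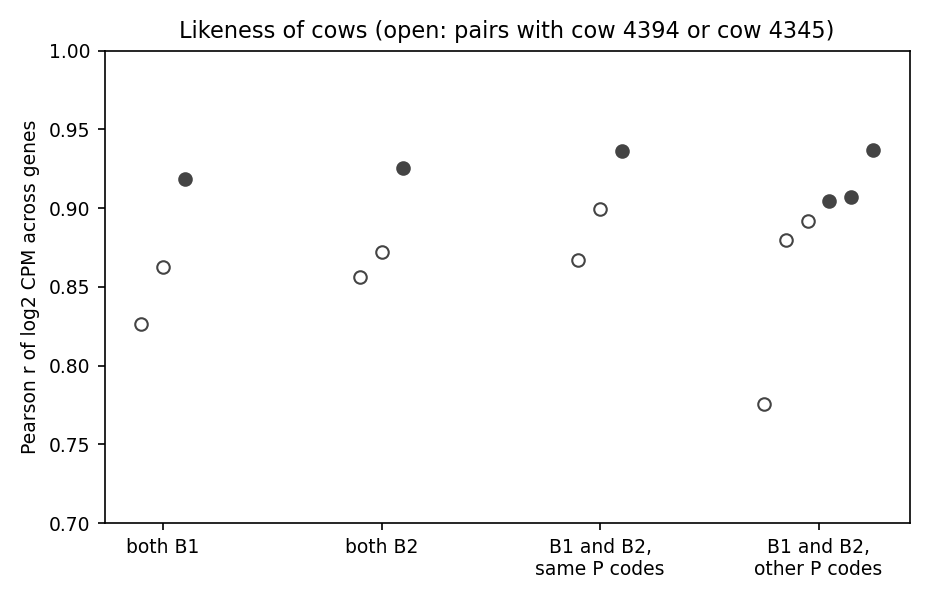
Pearson correlation across genes of log2 CPM for each of the 15 pairs of cows, by code and P codes, with open points for pairs that include cow 4394 or cow 4345. Pairs within a code (0.827 to 0.925) lie inside the range of pairs across codes (0.775 to 0.937).

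The largest share of the variation lay among cows of the same code. Over the 12 libraries, the median share of a gene's variance of log2 CPM was 46.7% among cows within a code (4 degrees of freedom). It was 4.74% between the codes (1), 3.64% between treatments (1) and 36.4% left over (5). Each median was taken over genes on its own, so the 4 do not describe 1 gene. Per degree of freedom the codes varied more than the cows within them for 3560 genes, 29.3% of those tested. Part of the genes would do so without any difference between codes, so this is not a count of genes that differ. In genes at 5 CPM or more the median shares were 49.2% among cows and 4.09% between codes.

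The control and lysine libraries were also compared between the codes on their own, 3 against 3. Neither comparison called a gene (edgeR, adjusted p under 0.05), and 214 and 271 genes were at an unadjusted p under 0.05. Of the 11042 genes tested in both, 212 were at that level in the controls and 259 in the lysine libraries. In both comparisons 12 were at that level, 5 of them lower and 1 higher in B2 each time, and 6 in opposite directions. The overlap expected by chance was not computed. The comparisons share cows but no library.

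The P codes gave a further pairing of cows across the B codes. With the 3 pairs of equal P codes as a block, edgeR called 0 genes, with 188 at an unadjusted p under 0.05, 110 higher and 78 lower in B2. For genes at 5 CPM or more, the typical distance between the cows of a pair was 0.263 on the log2 scale for cows 4383 and 4381, 0.382 for cows 4394 and 4408 and 0.416 for cows 4319 and 4345 (median absolute difference). Cows of different codes with other P codes were 0.27 to 0.668 apart, and cows of the same code 0.296 to 0.561. The deviations of the paired cows from their code means correlated across genes at 0.347 for cows 4319 and 4345, -0.096 for cows 4383 and 4381 and 0.152 for cows 4394 and 4408. Without the same values for cows of unequal P codes, these do not show whether equal P codes paired the cows.

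The spread between cows, as fitted by edgeR, limits the size of difference that could be seen. That spread is estimated partly from other genes, so an interval does not reflect the gene's own cows alone. Over the 7129 genes at 5 CPM or more, a typical 95% interval reached 0.78 (log2) to either side, a factor of 1.72. It stayed inside a 2-fold difference for 3655 of them (51.3%) and inside a 4-fold difference for 6663 (93.5%). Of the 1469 genes under 1 CPM, the interval lay within 4-fold for 21 (1.43%). The intervals hold for a single gene, without adjustment over genes, and a difference beyond its own interval could still miss the adjusted threshold, as ENSBTAG00000002846 did.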

How the data were processed

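RNA from the fat layer of milk was sequenced in 12 libraries from 6 cows. The authors deposited raw read counts (whole numbers, neither normalized nor pooled) for 24616 Ensembl gene IDs, 1 column per library, per the file header; every column was used. Of aligner, counter, strand setting and build, the labels and header name none (not given in the sources used here). Groups were taken from the sample descriptions. The comparison, lists and alternatives were chosen with earlier results of these data known; 0 IDs matched a symbol, so the gene and marker lists were not used.

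Counts of the 2 libraries of a cow were summed. Genes were kept by filterByExpr (minimum count 10, about 0.261 CPM, in 3 cows), leaving 99.95% of counts, and TMM factors were applied. edgeR 4.0.16 (R 4.3.3) robust quasi-likelihood models with the B code were tested two-sided, with Benjamini-Hochberg adjustment over all tested genes and a threshold of 0.05. The standard error was taken as the absolute log2 fold change divided by the root of F. DESeq2 1.42.0 and limma 3.58.1 were alternatives. Values per cow were compared by exact two-sided permutation, 3 against 3, where p cannot fall below 0.1. An expected count is the mean normalised level of the other 11 libraries times the effective total. Log2 CPM used a prior count of 2. As none was called, the rule for named genes took the 10 smallest p values a direction at a mean of 5 CPM or more; at most 2 IDs a direction are printed. The edgeR step was tested on simulated data. Control and lysine libraries of a cow come from 1 animal with 1 B code, so the cow, not the library, was the replicate. Their deviations from the group means correlated at 0.107 to 0.687 across genes. Without the same values for libraries of different cows, these do not show how alike the libraries of a cow were. Summed depth was 31.2 to 69.2 M counts a cow.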

Additional observations from a re-analysis of the deposited data

How the results depend on the processing

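The count of 0 genes called held in 17 of 19 alternatives, among them each cow left out, the control or lysine libraries alone, the pairs of equal P codes as a block, and cow as a random replicate block over the 12 libraries (limma-voom, 0 genes called, 173 at an unadjusted p under 0.05). DESeq2 called 2 genes and library totals as the only scaling called 1. The latter gene was higher in B2 and had 1885 counts in cow 4345 and 2 to 145 in the other 5 cows; the cause was not tested. The number at an unadjusted p under 0.05 (143) was 374 with DESeq2, 294 without a low-count filter, 481 with library totals, 271 in the lysine libraries alone, 67 with the log2 total as a covariate, 254 without cow 4381 and 215 without cow 4319. Of the 143 genes, 51 to 76 were again at that level with a cow left out, and 10 with the log2 total as a covariate (13 higher and 54 lower in B2 in all). With the random replicate block 105 were higher and 68 lower. The 5 described genes kept their direction in all 19 alternatives, but they were picked by p from these libraries. The difference in total counts per library (11.4 M, B2 minus B1) was 0.746 M in control and 22.0 M in lysine libraries. With 3 cows a side, 48.7% of intervals of genes at 5 CPM or more reached beyond a 2-fold difference.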
